A study of Mus musculus with 6 samples.

Results

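Mitochondria carry their own ribosomes, which translate the few mRNAs of mitochondrial DNA into core subunits of the respiratory chain. All proteins of these ribosomes are encoded in the nucleus, made in the cytosol and imported. Precursors cross the outer membrane through the TOM complex and the inner membrane through the TIM complexes, and the mitochondrial processing peptidase then removes their targeting sequence. The heart depends on this route because its contraction is fed mainly by oxidative phosphorylation. The genes described here were chosen by symbol among the protein-coding transcripts of the table: proteins of the large (Mrpl) and small (Mrps) mitochondrial ribosomal subunits, Tomm and Timm translocase genes, the processing peptidase genes Pmpca and Pmpcb, the translation genes Mtif, Tufm and Mtg, and the mitochondrial transcription genes Tfam, Tfb1m and Tfb2m. They numbered 69 of 8969 protein-coding genes, with 90 of 11745 transcripts. Levels are in FPKM, a read count scaled to transcript length and to the total of the library, summed over the listed transcripts of each gene.

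RNA came from 6 hearts of male mice, each isolated and perfused through its coronary vessels (Langendorff perfusion). In the 3 Sham hearts contraction was not interrupted. The 3 I/R hearts (ischaemia and reperfusion) were arrested for 30 min with a cardioplegic solution, given as Tomas in the labels, and reperfused for 1 h. All hearts shared the isolated perfusion, and the labels used here give neither strain nor age. Totals of 7233171 to 9902397 reads stood behind the FPKM of protein-coding genes, of which the listed transcripts held 36.8% to 39.9%, so the part of a member's reads that is listed is not known. As a check of the tissue, 11 of 13 ventricular cardiomyocyte markers were listed, with summed levels of 9730 to 10342 FPKM in Sham and 9695 to 10561 FPKM in I/R. Of these 11, 3 had higher and 8 lower means in I/R (median log2 change −0.33). The 7 fibroblast markers listed of 8 summed to 212 to 289 FPKM in Sham and 298 to 337 FPKM in I/R, with 5 of 6 tested higher, and the 4 macrophage markers listed of 7 summed to 885 to 1064 and 1096 to 1191 FPKM, with 4 of 4 higher. Summed neutrophil and lymphocyte markers, 3 of 6 listed in each case, were under 2 FPKM in every heart. No listed marker was at 0 in all hearts. Their part in the differences below was not tested. In RNA of heart tissue, fewer cells of a type and less RNA per cell cannot be told apart.

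Setting I/R against Sham hearts asks whether the nuclear genes that build and supply the mitochondrial ribosome differ 1 h after a cardioplegic arrest. Across the group they differed little. Of the 69 members, 55 had a mean of at least 0.5 FPKM and were tested, 20 with a higher and 35 with a lower mean in I/R, and the median log2 change was −0.07 beside 0.02 for all 5041 protein-coding genes tested. Without regard to sign the median change was 0.15 for members and 0.14 for all of these genes. Scaling the hearts to equal quantiles left 14 of the 55 with a higher mean (median −0.10). The split rested on single hearts, with 12 of 55 higher without I/R replicate 1 (median −0.17) and 28 of 55 higher without I/R replicate 2 (median 0.03). The 4 genes with the smallest p had no overlap between the hearts of the groups, which a choice by small p favours. Of all protein-coding genes tested, 8.83% lay all higher and 5.12% all lower in I/R, beside 1 and 4 of the 55 members. The ribosomal protein gene Mrps30 was at 1.42 times its Sham mean in I/R and the import channel gene Timm17a at 0.711 times. Short transcripts with few reads made up the larger part of the lower Timm17a sum. The longest Timm17a transcript, which drew most of the reads, was at means of 9.35 FPKM in Sham and 7.67 FPKM in I/R. The peptidase gene Pmpcb was at 0.262 times its Sham mean, on 48 reads in Sham and 11 in I/R. The ribosome assembly gene Mtg1 was at 0.35 times, on 19 and 6 reads. No member passed the adjustment over all genes (limma, smallest adjusted p among members 0.386). Each change below is the I/R mean less the Sham mean on the log2(FPKM + 1) scale, with its SE. This scale understates changes of low genes. Levels of a group are given as mean ± SD over its 3 hearts.

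By limma, 0 of 12114 genes and lncRNAs had an adjusted p under 0.05 (0%), and 1023 had an unadjusted p under 0.05. With limma voom, run on read numbers recovered from the deposited values, 0 were called and 1053 were at an unadjusted p under 0.05. Among protein-coding genes, 3.43% were higher and 1.67% lower in I/R at an unadjusted p under 0.05. Of the 55 members tested, 1 (Mrps30) was higher and 3 (Pmpcb, Mtg1 and Timm17a) were lower at that level. The 3 I/R hearts lay all above the Sham hearts for 8.83% of protein-coding genes and all below for 5.12%, and for 1 and 4 of the 55 members. The fourth of the lower members was Tomm22.

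**Figure D1:**
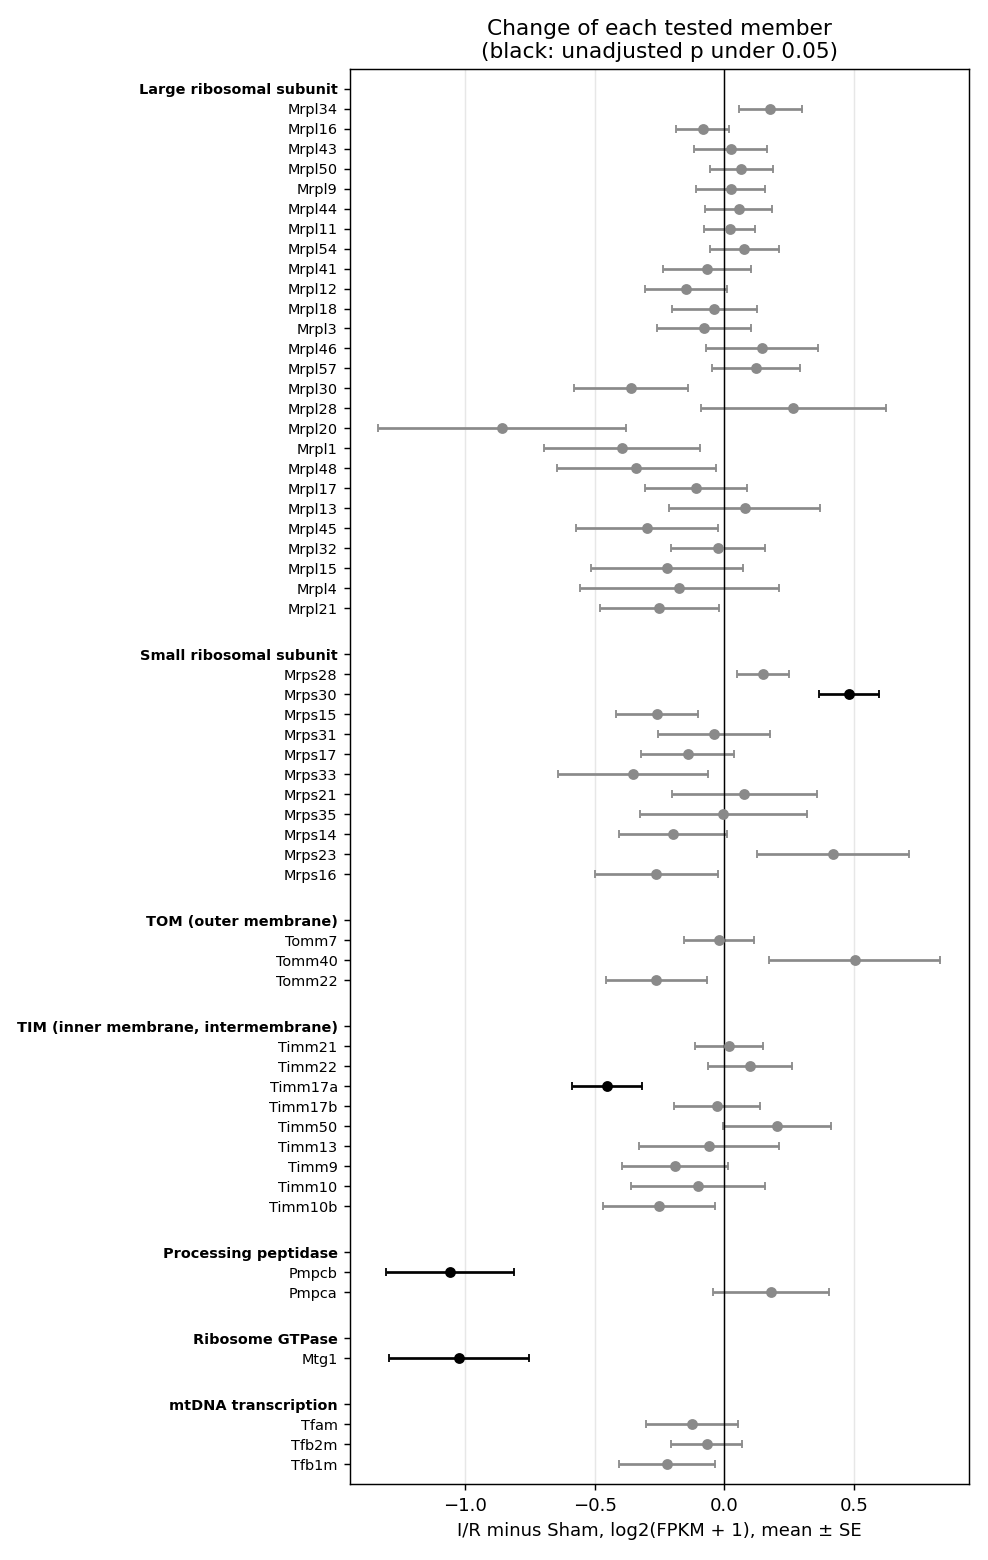
Change of each of the 55 members tested, I/R minus Sham in log2(FPKM + 1), grouped by role. Points are fitted differences, bars are ± SE with n = 3 hearts per group, and black marks the 4 members with an unadjusted p under 0.05, of which Mrps30 lies to the right of 0 and Pmpcb, Mtg1 and Timm17a to the left.

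Mrps30 (ENSMUSG00000021731) carries a small subunit name, although its protein sits in the large subunit in structures of mammalian mitochondrial ribosomes. It was at 19.5, 20.3 and 19.3 FPKM in Sham replicates 1, 2 and 3 and at 26.3, 28.1 and 29.3 FPKM in I/R replicates 1, 2 and 3. The lowest I/R heart lay well above the highest Sham heart, and the hearts of each group lay close together. Group means were 19.7 ± 0.551 and 27.9 ± 1.48 FPKM, a change of 0.48 ± 0.12 (limma, adjusted p = 0.388 over all genes). Its listed transcript of 3319 bases drew 1756 reads in Sham and 2263 in I/R, in total the most of any member whose groups did not overlap. With 1 heart left out the change ranged from 0.45 to 0.52, and over other settings from 0.42 to 0.50.

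The start of Mrps30 lies under a lncRNA on the opposite strand. The gene spans chr13:118378381-118387252 on the minus strand, and B430218F22Rik (ENSMUSG00000097411) spans chr13:118386630-118388124 on the plus strand, an overlap of 623 bases. The coordinates are those of the table, for which no build is named in its header. They match GRCm38, where 67 of 69 members overlapped their RefSeq span over at least 50% of their length. B430218F22Rik was at 176, 198 and 212 FPKM in the Sham hearts and at 239, 273 and 273 FPKM in the I/R hearts. It too was higher in all I/R hearts than in any Sham heart, by 0.42 ± 0.11 (limma, adjusted p = 0.389). The share of all lncRNAs without overlap was not analysed here. By limma, 1023 of 12114 genes and lncRNAs had an unadjusted p under 0.05. Of these, 173 higher and 84 lower were protein-coding genes, of 5041 tested, and the rest were lncRNAs. A protein-coding entry of B430218F22Rik, with 22 reads in Sham and 39 in I/R, had overlapping groups (0.39 ± 0.24; limma, adjusted p = 0.722). The level of the lncRNA cannot be set against that of Mrps30, because lncRNA values were divided by a total of their own. The lncRNA drew 2177 reads in Sham and 2811 in I/R. Whether the counting used strand is not stated in the sources used here, and without strand the reads of the shared bases cannot be told apart. Mrps30 reads outside the overlap were not analysed here on their own.

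The bases before the RefSeq gene start (GRCm38.p6) are shown for Mrps30, because that stretch lies inside the span of the lncRNA, and beside it for Timm17a and Pmpcb, the lower members with the most reads and with the smallest p. Each line gives 250 bases, 5′ to 3′ on the strand of the gene, and capitals mark the letters CCAAT or CCGGAA on either strand, ATTGG being CCAAT read on the other strand. The Mrps30 stretch is chr13:118387253-118387502 on the minus strand, that of Timm17a chr1:135313738-135313987 on the minus strand and that of Pmpcb chr5:21736910-21737159 on the plus strand.
Mrps30: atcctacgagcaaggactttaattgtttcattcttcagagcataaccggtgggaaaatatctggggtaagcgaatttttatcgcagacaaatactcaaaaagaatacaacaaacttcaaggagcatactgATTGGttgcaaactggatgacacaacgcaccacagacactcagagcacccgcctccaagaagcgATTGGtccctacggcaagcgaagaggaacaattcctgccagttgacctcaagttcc
Timm17a: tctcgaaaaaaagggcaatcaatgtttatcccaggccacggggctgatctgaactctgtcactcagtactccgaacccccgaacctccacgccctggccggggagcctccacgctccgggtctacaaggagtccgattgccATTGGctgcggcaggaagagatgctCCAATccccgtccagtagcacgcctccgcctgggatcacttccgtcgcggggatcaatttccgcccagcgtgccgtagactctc
Pmpcb: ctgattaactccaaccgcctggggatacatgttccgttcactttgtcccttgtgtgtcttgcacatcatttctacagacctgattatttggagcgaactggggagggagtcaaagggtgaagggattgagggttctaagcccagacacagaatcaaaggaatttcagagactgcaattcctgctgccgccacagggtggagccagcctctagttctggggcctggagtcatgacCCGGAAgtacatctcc
CCAAT, the letters of a common proximal promoter element, was found 2 times before Mrps30 and 2 times before Timm17a, and CCGGAA, the core bound by ETS factors such as GABPA, 1 time in the Pmpcb window, starting 16 bases before the RefSeq start. The windows end at the RefSeq starts, which for Pmpcb (21737160) and Timm17a (135313737) lie inside the spans of the table, so their last bases, with the Pmpcb motif, fall within the listed gene. Promoters were listed for 61 of the 69 members, in 66 windows. CCGGAA was in 34.8% of the member windows, beside 19.6% of 4752 windows of protein-coding genes tested and 12% of all 32851 windows. The letters GCATGCGC, a core of the sites of NRF1, a regulator of nuclear genes for mitochondria, were in 6.06% of member windows (Mrpl17, Mrpl32, Mrpl9 and Timm13), 3.85% of windows of genes tested and 2.26% of all windows. CCAAT was in 27.3%, 35.5% and 33.8% and TATAAA, the TATA box letters, in 12.1%, 7.26% and 12.4% of the same windows. Both strands were searched, matches of different motifs can share at most 1 letter, and a match describes the sequence only.

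Among genes with small subunit symbols Mrps30 was the one without overlap between the groups. Mrps28, the most abundant of them, was at 81.4, 77.3 and 75.7 FPKM in Sham and at 89.8, 79.8 and 91.0 FPKM in I/R (0.15 ± 0.10; limma, adjusted p = 0.739). Mrps15 was at 20.2, 16.2 and 19.0 FPKM in Sham and at 16.5, 13.1 and 16.2 FPKM in I/R, which is lower on average with overlapping hearts (−0.26 ± 0.16; limma, adjusted p = 0.718). Hearts of the groups overlapped for both genes. Of the 16 genes with such symbols, 11 were tested, 4 with a higher and 7 with a lower mean in I/R and a median log2 change of −0.04. Mean levels of the tested genes ran from 0.685 FPKM for Mrps16 to 82.5 FPKM for Mrps28. The other 5 (Mrps12, Mrps18c, Mrps2, Mrps24 and Mrps5) had at most 6 reads in either group.

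Genes with large subunit symbols (Mrpl) held the most abundant members, and their groups overlapped for all 26 that were tested. Mrpl34 was the highest of all, at 242, 230 and 261 FPKM in Sham and at 325, 251 and 258 FPKM in I/R. Its I/R mean of 278 ± 41.2 FPKM rested on replicate 1, and without that heart the change of 0.18 ± 0.12 was 0.06. Mrpl16 was at 103, 103 and 117 FPKM in Sham and at 109, 96.6 and 98.3 FPKM in I/R (−0.08 ± 0.10). Mrpl43 was at 91.2, 111 and 100.1 FPKM in Sham and at 115, 86.4 and 107 FPKM in I/R (0.02 ± 0.14). Their order by level was Mrpl34, then Mrpl16 and Mrpl43, and these last genes did not differ from each other beyond the spread of the hearts. Mrpl11 was among the steadiest members, at 40.1 to 41.5 FPKM in Sham and 40.4 to 42.2 FPKM in I/R.

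Of the 31 genes with Mrpl symbols, 26 were tested, 11 with a higher and 15 with a lower mean in I/R, and the median log2 change was −0.05. The tested changes ran from −0.86 to 0.27 (Mrpl28). The largest was that of Mrpl20, at 5.71, 3.05 and 6.88 FPKM in Sham and 0.883, 5.34 and 2.02 FPKM in I/R (−0.86 ± 0.48; limma, adjusted p = 0.678). Its groups overlapped, with 60 reads in Sham and 31 in I/R, and I/R replicate 2 was at the level of the Sham hearts. The other 5 (Mrpl24, Mrpl27, Mrpl40, Mrpl42 and Mrpl55) were below the filter, with at most 16 reads in either group.

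**Figure D2:**
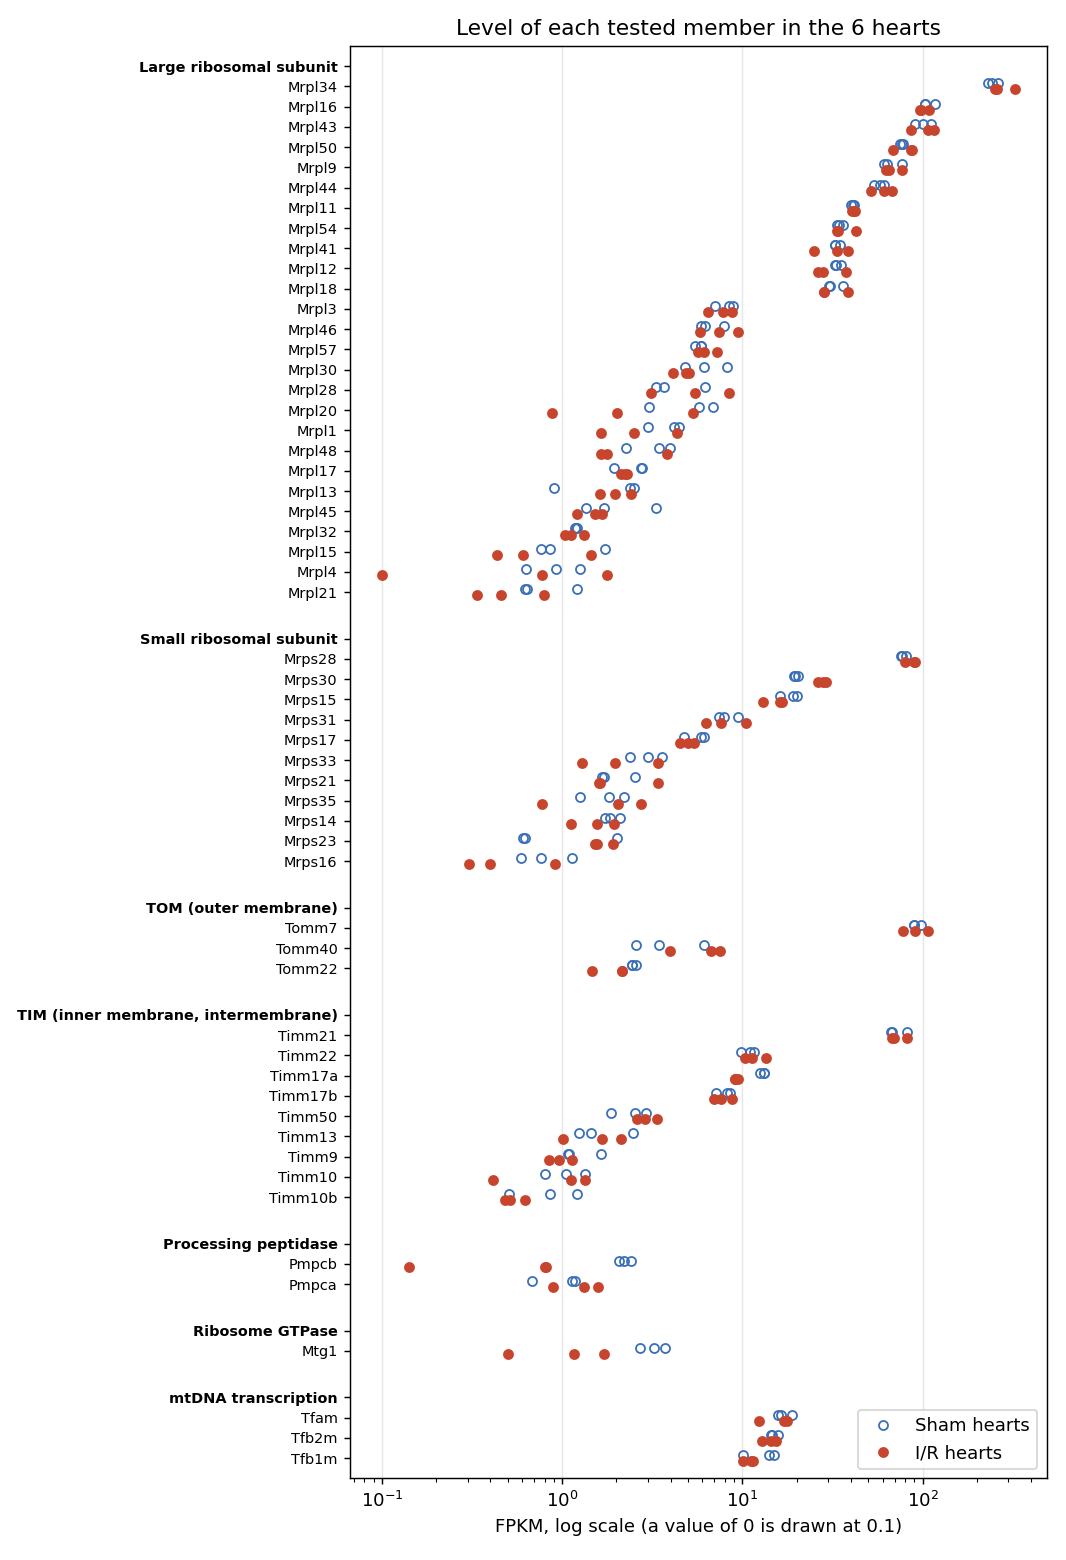
Level of the 55 members tested in each heart, as FPKM on a log axis, grouped by role and ordered by mean level within a role. Open circles are the 3 Sham and filled circles the 3 I/R hearts, which overlap for nearly all members and lie apart for Mrps30, Timm17a, Pmpcb, Mtg1 and Tomm22.

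In the TOM complex, Tomm7, a small subunit that modulates the pore, was at 97.7, 90.2 and 90.2 FPKM in Sham and at 107, 77.4 and 91.3 FPKM in I/R (−0.02 ± 0.14). Tomm22, a receptor that organizes the complex, was at 2.45, 2.45 and 2.56 FPKM in Sham and at 2.15, 2.15 and 1.47 FPKM in I/R. All its I/R hearts lay below the Sham hearts, by a small margin for replicates 1 and 2, and the change was −0.26 ± 0.20 on 104 and 74 reads (limma, adjusted p = 0.776). Tomm40, the pore itself, was at 6.15, 2.59 and 3.45 FPKM in Sham and at 3.96, 7.47 and 6.72 FPKM in I/R (0.50 ± 0.33; limma, adjusted p = 0.739). It had 40 and 54 reads, its groups overlapped, and the lncRNA Gm20512 on the opposite strand overlaps 423 of its bases with 1677 reads in Sham and 1914 in I/R. Without Sham replicate 1 the change of Tomm40 was 0.78. Tomm5 was below the filter, with 14 reads in Sham and 3 in I/R.

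Timm17a encodes a channel-forming subunit of the TIM23 complex, which imports proteins with a cleavable targeting sequence. Timm17a (ENSMUSG00000062580, chr1:135295213-135313778) was at 13.2, 13.1 and 12.5 FPKM in Sham and at 9.05, 9.07 and 9.48 FPKM in I/R. The 3 I/R hearts lay close together and well below the Sham hearts, at means of 9.2 ± 0.242 and 12.9 ± 0.384 FPKM. The change was −0.45 ± 0.13 (limma, adjusted p = 0.468), with a range of −0.47 to −0.44 when 1 heart was left out. The reads behind these values were 1881 for Sham and 1386 for I/R, of which the longest listed transcript drew 1823 and 1363.

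Each of the 3 listed Timm17a transcripts was lower in every I/R heart than in any Sham heart. The 7280-base transcript, which held 1823 of the Sham reads, was at 9.32, 9.42 and 9.31 FPKM in Sham and 7.34, 7.66 and 8.002 FPKM in I/R. The 636-base transcript was at 3.02, 2.61 and 2.61 FPKM in Sham and 1.43, 1.41 and 1.21 FPKM in I/R. The 468-base transcript was at 0.863, 1.11 and 0.591 FPKM in Sham and 0.278, 0 and 0.273 FPKM in I/R, from 11 and 2 reads. All 3 thus lay lower in I/R, on very unequal read numbers. The changes of these rows were −0.26 ± 0.14, −0.67 ± 0.18 and −0.65 ± 0.21 (limma over transcript rows, adjusted p = 0.670, 0.415 and 0.476). Group means in Sham and I/R were 9.35 and 7.67 FPKM for the 7280-base transcript and 2.74 and 1.35 FPKM for the 636-base one. The 468-base transcript had means of 0.854 and 0.184 FPKM, and the 636-base one drew 47 and 21 reads. The short transcripts, with few reads, thus made up the larger part of the lower sum. With the longest transcript alone the change of Timm17a was −0.26. Over all 12963 transcript rows tested, 0 had an adjusted p under 0.05 (0%) and 1109 an unadjusted p under 0.05. Of protein-coding rows 3.68% were higher and 2.16% lower at that unadjusted level, and of 65 member rows 1 and 4, the lower ones being those of Pmpcb and Mtg1 and the 2 short rows of Timm17a.

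Its paralog Timm17b was at 7.19 to 8.49 FPKM in Sham and 6.98 to 8.81 FPKM in I/R, with overlapping groups. Timm21, which links TIM23 to the respiratory chain, was at 82.3, 67.0 and 67.5 FPKM in Sham and at 82.2, 67.4 and 69.8 FPKM in I/R (0.02 ± 0.13). Timm22, the channel for carrier proteins, was at 11.6, 9.83 and 11.1 FPKM in Sham and at 13.5, 11.3 and 10.3 FPKM in I/R (0.10 ± 0.16). Both overlapped between the groups. Timm50, the TIM23 receptor, was at 1.87 to 2.92 FPKM in Sham and 2.6 to 3.35 FPKM in I/R. Of the 10 Timm genes 9 were tested, 3 with a higher and 6 with a lower mean in I/R, and the small chaperones of the intermembrane space (Timm9, Timm10, Timm10b and Timm13) were all at or under 2.47 FPKM in every heart. Timm8a2 was below the filter.

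Pmpcb encodes the catalytic subunit of the processing peptidase and Pmpca the subunit that recognizes the targeting sequence. Pmpcb (ENSMUSG00000029017, chr5:21737141-21757152) was at 2.4, 2.21 and 2.08 FPKM in Sham and at 0.815, 0.141 and 0.8 FPKM in I/R. These values stood for 19, 17 and 12 reads in Sham and 5, 1 and 5 reads in I/R. The groups did not overlap (−1.06 ± 0.25; limma, adjusted p = 0.386), and on the recovered reads (voom) the change was −2.12. Pmpca was at 0.678, 1.14 and 1.18 FPKM in Sham and at 1.59, 0.892 and 1.33 FPKM in I/R, with overlapping hearts and a change of 0.18 ± 0.22. The listed Pmpcb transcript had 798 bases, and other transcripts of the gene were not analysed here.

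Mtg1, a GTPase that acts in assembly of the large subunit, was at 2.70, 3.24 and 3.70 FPKM in Sham and at 1.16, 0.502 and 1.71 FPKM in I/R (ENSMUSG00000039018, chr7:140137564-140150786). The groups did not overlap, but the values rested on 6, 7 and 6 reads in Sham and 2, 1 and 3 reads in I/R, on a listed transcript of 224 bases. The change was −1.02 ± 0.27 (limma, adjusted p = 0.420), and −1.57 with a pseudocount of 0.1. Mtg1 also overlaps 159 bases of Sprn on the opposite strand. Tufm, the elongation factor that delivers tRNAs to the mitochondrial ribosome, was at 1.22, 0.786 and 0 FPKM in Sham, on 13 reads, and was listed at 0 in all I/R hearts. These values are for a listed transcript of 660 bases, and other transcripts of Tufm were not analysed here. Mtif2, an initiation factor, was at 0.0833, 0 and 0.171 FPKM in Sham and at 0, 0 and 0.105 FPKM in I/R, on 5 and 2 reads. Both were below the filter and were fitted only where no filter was used. Mtif3, Mtg2 and Polrmt were not analysed here.

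**Figure D3:**
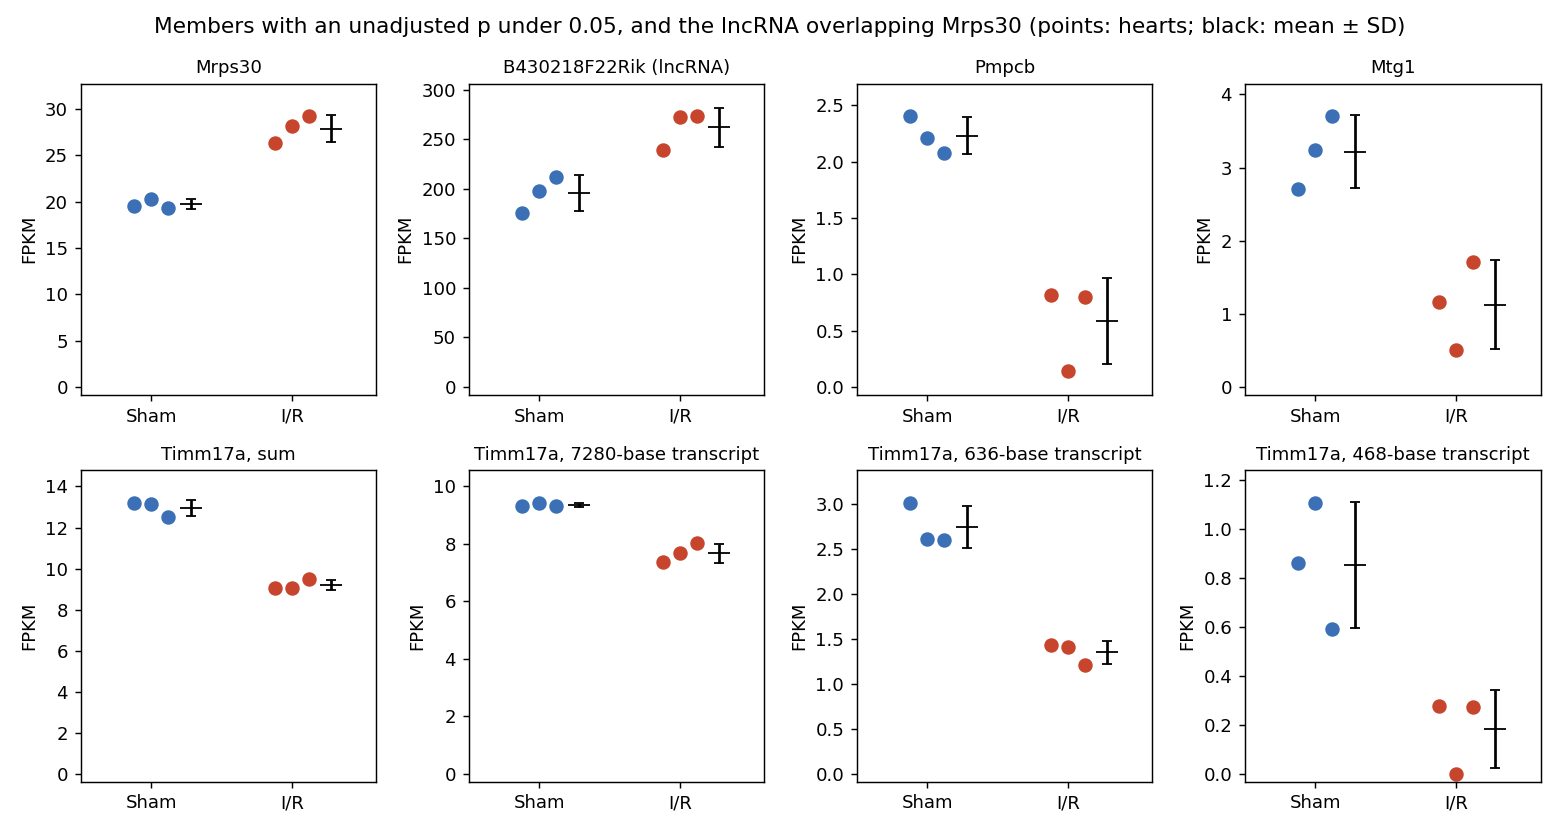
FPKM in each heart for the 4 members with an unadjusted p under 0.05, for the lncRNA that overlaps the start of Mrps30 and for the 3 listed Timm17a transcripts. Points are hearts and the black mark is the mean ± SD of 3, and in all 8 panels the I/R hearts lie on 1 side of the Sham hearts, above for Mrps30 and B430218F22Rik and below for the others. The members were chosen by p and the lncRNA was named after its values were seen. The Timm17a transcripts are parts of the Timm17a sum, so the panels are not separate observations.

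Genes of mitochondrial DNA transcription gave no separation. Tfam, which packages mitochondrial DNA and starts its transcription, was at 16.3, 18.8 and 15.8 FPKM in Sham and at 17.7, 12.3 and 16.9 FPKM in I/R (−0.12 ± 0.18). Only I/R replicate 2 lay below all Sham hearts, and without it the change was 0.03. Tfb2m, the other transcription initiation factor, was at 14.6, 14.4 and 15.8 FPKM in Sham and at 15.3, 12.9 and 14.4 FPKM in I/R (−0.07 ± 0.14). Tfb1m, which modifies the small ribosomal RNA, was at 14.98, 14.1 and 10.1 FPKM in Sham and at 11.4, 10.1 and 11.2 FPKM in I/R (−0.22 ± 0.19). In all 3 the groups overlapped. The levels of Tfam and Tfb2m, and those of Tfb2m and Tfb1m, overlapped between hearts.

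Many members differed between the I/R hearts in the same order. Summed over all members, the level was 1296, 1263 and 1311 FPKM in Sham and 1482, 1191 and 1291 FPKM in I/R, so I/R replicate 1 was above and replicate 2 below every Sham heart. The same hearts stood at the ends for many of the 27 members with a mean of at least 100 reads. I/R replicate 1 was the highest of the 6 hearts for 14 of them (51.9%) and replicate 2 the lowest for 12 (44.4%). Among all 2040 protein-coding genes with that many reads the shares were 34.8% and 19.0%. Their median deviation from the mean of each gene was 0.16 in I/R replicate 1 and −0.15 in replicate 2, beside −0.03 to 0.01 in the Sham hearts, and over all protein-coding genes with that many reads 0.07 and −0.01 in the same I/R hearts. The coefficient of variation between hearts had a median of 7.31% in Sham and 12.8% in I/R and was wider in I/R for 20 of 27 members (74.1%), where all protein-coding genes with that many reads gave 8.89%, 9.74% and 53.5%. The difference between these shares was not tested. Cardiomyocyte markers did not share 1 order over these hearts. Of the 11 listed ventricular markers, Fabp3, Ttn, Pln, Ryr2, Mb and Ckm were highest of the I/R hearts in replicate 1, as many members were. Myh6, Tnnt2 and Tnni3 were highest in replicate 3, and Myl2 and Myl3 in replicate 2. Fabp3, which makes up most of the ventricular sum, was at 9977, 9090 and 9539 FPKM in I/R replicates 1, 2 and 3. The myosin light chain genes were at 121, 174 and 143 FPKM (Myl2) and at 59.4, 120.2 and 94.1 FPKM (Myl3), lowest in replicate 1. The atrial marker Myl7 was at 0.342, 43.2 and 115.1 FPKM in Sham and at 0.22, 326 and 10.4 FPKM in I/R. Sln was at 0, 4.25 and 12.2 FPKM in Sham and at 0, 43.2 and 0.679 FPKM in I/R. Both were highest in I/R replicate 2, but the other atrial markers listed were not. In I/R replicates 1, 2 and 3 Nppa was at 465, 583 and 811 FPKM and Myl4 at 1.07, 0.751 and 0.436 FPKM. The part of these markers in the pattern of the members was not tested.

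**Figure D4:**
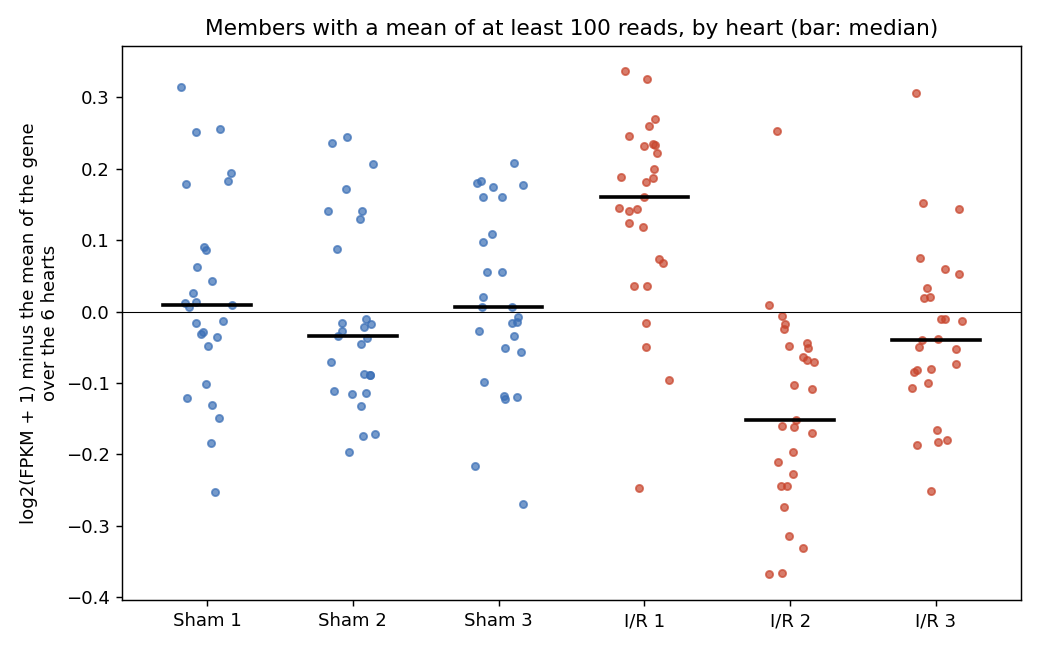
Deviation of each of the 27 members with a mean of at least 100 reads from the mean of its gene over the 6 hearts, in log2(FPKM + 1), for each heart. Points are genes and bars are medians, highest in I/R replicate 1 (0.16) and lowest in I/R replicate 2 (−0.15).

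Mrps30 and Timm17a did not follow this order, and other members did not either. Mrps30 was lowest of the I/R hearts in replicate 1, as was Mrpl17. Timm17a differed by less than 0.5 FPKM among the I/R hearts, and Mrpl11 was at 40.4 to 42.2 FPKM in them. Mrps28 and Mrpl50 were highest of the I/R hearts in replicate 3. Among the 27 members with a mean of at least 100 reads, Mrps30 and Timm17a were the ones whose groups did not overlap, 1 higher and 1 lower. Of all protein-coding genes with that many reads, 12.7% were all higher and 3.04% all lower. The median size of the change, without regard to sign, was 0.08 for these 27 members and 0.10 for all such genes. Of the 28 members with fewer reads, 8 had a higher and 20 a lower mean in I/R (median −0.19), beside 1430 higher and 1571 lower of 3001 protein-coding genes with fewer reads (median −0.01). The 27 better measured members split as 12 and 15 (median −0.03), beside 1335 and 705 of 2040 (median 0.05).

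**Figure D5:**
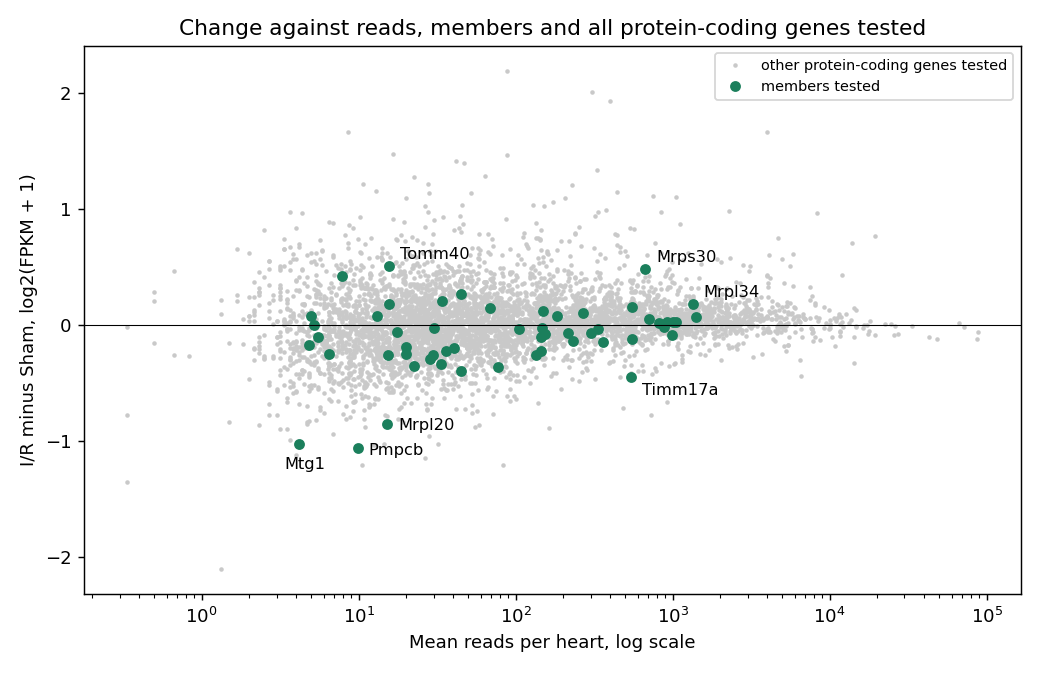
Change, I/R minus Sham in log2(FPKM + 1), against the mean reads per heart on a log axis, for the 55 members tested (green) and the other protein-coding genes tested (grey). Pmpcb, Mtg1 and Mrpl20 lie among genes with few reads and wide scatter, and Mrps30 (0.48) and Timm17a (−0.45) lie outside most genes with as many reads. Most reads of Timm17a are those of its 7280-base transcript, for which the change was −0.26.

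Other genes of the same pathways, of which 55 were tested, gave 2 genes at an unadjusted p under 0.05, Kars and Dnajc19, both lower in I/R. Of all protein-coding genes tested, 3.43% were higher and 1.67% lower at that level. Of the 55, Kars, Dnajc19 and Mpv17l2 lay all lower and Coa3 all higher in I/R. Among all protein-coding genes tested, 5.12% lay all lower and 8.83% all higher. Of 21 import genes with other names 18 were listed and 13 tested, 7 with higher and 6 with lower means in I/R and a median log2 change of 0.02. Dnajc19, a cochaperone of the TIM23 import motor, was at 4.29, 3.06 and 3.29 FPKM in Sham and at 2.58, 1.85 and 2.21 FPKM in I/R. Its hearts did not overlap (−0.50 ± 0.21 on 196 and 113 reads; limma, adjusted p = 0.587). With its most abundant transcript alone the change was −0.20, and Dnajc19 then no longer had an unadjusted p under 0.05, as also when any heart but I/R replicate 1 was left out. Hspa9, the motor chaperone and the most abundant gene of the list, was at 462 ± 23.2 and 469 ± 9.54 FPKM. Samm50, which inserts barrel proteins into the outer membrane, differed by 0.19 ± 0.11 and Dnajc15, another motor cochaperone, by 0.17 ± 0.16.

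Of 23 genes of mitochondrial tRNA synthetases and the amidotransferase 11 were tested, 2 with higher and 9 with lower means and a median of −0.12. Kars, whose gene serves both the cytosol and mitochondria, was at 1.74, 1.53 and 1.36 FPKM in Sham and at 0.639, 0.552 and 0 FPKM in I/R, on 17 and 4 reads (−0.89 ± 0.25; limma, adjusted p = 0.450). Yars2 differed by −0.27 ± 0.22 and Sars2 by −0.13 ± 0.14, and the abundant Gatc was at 32.4 ± 0.828 and 32.7 ± 2.11 FPKM. Of 13 genes of elongation, release and recycling 7 were tested, 3 with higher and 4 with lower means and a median of −0.04. Coa3, an assembly factor of cytochrome oxidase, was at 2.74, 1.99 and 2.5 FPKM in Sham and at 2.94, 3.3 and 3.6 FPKM in I/R, without overlap (0.33 ± 0.19; limma, adjusted p = 0.700). Taco1, a translational activator of a cytochrome oxidase mRNA, differed by 0.14 ± 0.11 and the elongation factor gene Tsfm by −0.41 ± 0.25 on 34 and 13 reads.

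Ribosome assembly and rRNA modification genes gave 6 higher and 4 lower means among 10 tested of 28 (median 0.08). Mpv17l2 differed by −0.33 ± 0.20, without overlap between groups on 52 and 34 reads, Mterf3 by 0.42 ± 0.27, the pseudouridine synthase gene Rpusd4 by 0.21 ± 0.19 and the abundant ribosome-binding factor gene Rbfa by 0.08 ± 0.10. Of 28 genes of mitochondrial DNA maintenance and RNA handling 10 were tested, 8 with higher and 2 with lower means (median 0.08). Ssbp1, which binds single-stranded mitochondrial DNA, differed by −0.45 ± 0.30, the RNA-binding protein gene Slirp by −0.41 ± 0.28 and the protease gene Lonp1 by 0.12 ± 0.09, at 155 ± 3.72 and 169 ± 10.7 FPKM. Ribosomal proteins with other symbols were tested for Dap3 (−0.15 ± 0.30), beside the inner membrane insertase gene Oxa1l (0.04 ± 0.17). Of the nuclear regulators Esrra (0.07 ± 0.24) and Esrrb (−0.14 ± 0.26) were tested, and Ppargc1a, Nrf1 and Gabpa were not analysed here. By limma, 0 of the 55 genes tested from these lists had an adjusted p under 0.05.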

How the data were processed

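The labels' protocols name poly(A) selection and the NEBNext Ultra II kit for the libraries. Among tools, the submitters' processing notes list HISAT2 2.1.0, HTSeq 0.10.0, fastp 0.23.0 and bcl2fastq 2.19.1.403, and as builds mm10, GRCm38 and GRCm39, with no role for any. The table holds FPKM by transcript and library, as deposited by the authors. Of 21198 rows 40 repeated another and were dropped. Reads were recovered from the steps in which FPKM take their values (whole within a tolerance of 0.001, lengths from 30 bases), for 11745 of 11745 protein-coding and 9413 of 9413 lncRNA rows.

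Genes and lncRNAs with a mean of at least 0.5 FPKM were fitted together as log2(FPKM + 1) with limma 3.58.1 under R 4.3.3 (no factor but group, variance trend, two-sided), and p-values were adjusted by Benjamini-Hochberg across all 12114. A gene was called at an adjusted p under 0.05. The procedure and the recovery were tested on simulated data. The members and gene lists were chosen with earlier results of these data known, and no list was tested as a set. Values in every heart are given for the 3 most abundant members of each role, members with an unadjusted p under 0.05 and members from 5 FPKM without overlap of the groups. For each pathway list the 3 genes with the smallest p and the most abundant one are named. Further genes (Mrpl20, Mrpl11, Timm17b, Timm50, single marker genes and the lncRNAs) were named after their values were seen. Replicates of a group differed beyond read sampling (chi-square per degree of freedom from 8.43 to 15.9). Alternatives were pseudocounts of 0.5 and 0.1, no filter and a filter at 2 FPKM, quantile and median scaling, no variance trend, a replicate block, protein-coding genes alone, the most abundant transcript, voom and each heart left out. Promoters are from RefSeq (GRCm38.p6). Other steps ran in Python 3.11.15 with scipy 1.17.1, pandas 2.3.3, matplotlib 3.10.9 and numpy 2.4.6.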

Additional observations from a re-analysis of the deposited data

How the results depend on the processing

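No alternative called a gene or a transcript row. With all hearts kept, the count of members at an unadjusted p under 0.05 was 1 higher in each setting and 2 to 4 lower, where 3 were lower as reported. Timm17a left it with the most abundant transcript (−0.256), Mtg1 with voom and Pmpcb with the filter at 2 FPKM, which removed it, while without a filter Tufm entered it. Among member transcript rows 4 were lower as reported, 8 without a filter and 3 to 7 with 1 heart left out. All protein-coding genes gave 173 higher and 84 lower at that level, against 308 and 124 with voom and 296 and 159 when fitted alone. With 1 heart left out there were 1 to 2 higher and 3 to 5 lower, with 2 higher without Sham replicate 1 or without Sham replicate 2 and 5 lower without I/R replicate 2. The median over members was lowest without I/R replicate 1 (−0.168) and highest without I/R replicate 2 (0.0273). Dnajc19 was also above an unadjusted p of 0.05 with no filter, with the filter at 2 FPKM and with the replicate block (−0.50 in each). Of 40 genes named with a change, 29 kept their direction in all alternatives. Quantile scaling turned Mrpl43 (−0.0395), Timm21 (−0.0427), Gatc (−0.0806), Hspa9 (−0.0336) and Oxa1l (−0.0417). Leaving out 1 heart turned Mrpl43 (−0.0639 to 0.143), Timm21 (−0.0685 to 0.114), Timm22 (−0.00041 to 0.176), Tomm7 (−0.138 to 0.0951), Tfam (−0.215 to 0.0273), Dap3 (−0.441 to 0.0907), Esrra (−0.167 to 0.195), Esrrb (−0.275 to 0.0464), Gatc (−0.0262 to 0.0604), Hspa9 (−0.0166 to 0.0546) and Oxa1l (−0.0626 to 0.108). The cause was not tested. Deviations of hearts with equal replicate numbers correlated at 0.153, 0.028 and 0.029, beside −0.136 to 0.111 for unequal numbers. With 3 hearts per group these values cannot decide whether replicate numbers pair the hearts. With the replicate block the count of calls was 0 and the member counts 1 higher and 3 lower. Members with under 20 reads in the hearts of a group, such as Pmpcb and Mtg1, are limited by counting error.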
